A study of Mus musculus with 6 samples.

Results

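The E proteins and the Id inhibitors are 7 related genes in the mouse, 3 of the first kind (Tcf3, Tcf4 and Tcf12) and 4 of the second (Id1, Id2, Id3 and Id4). They were chosen by gene symbol, as the probe sets annotated to a single one of these symbols, and 22 of the 45101 probe sets on the array met that rule, 14 for E proteins and 8 for Id genes. The arrays held 18193 genes with a probe set of 1 symbol, so the family makes up 7 of them. Expression was compared in cells without an intact copy of the transcription factor gene Gata3 (Gata3-/-, 3 arrays) and in cells with 1 intact copy (Gata3+/-, 3 arrays). Cells of both genotypes came from mouse embryonic stem cells that had been differentiated on OP9 and OP9-DL1 stroma with IL-7 and Flt3L. OP9 is a mouse bone marrow stromal line, and OP9-DL1 carries a Notch ligand. The cells are labelled T-cell progenitors sorted by flow cytometry, but the sources used here do not give the sort markers, the disrupted part of Gata3 or the number of stem cell clones. No wild-type cells were compared, so the Gata3+/- cells, which lack 1 copy themselves, are the only reference. The titles call the replicates biological without saying what separated them, so the p-values cover the spread among the 6 arrays and no other source of variation.

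E proteins are basic helix-loop-helix transcription factors that bind DNA as dimers, with each other or with tissue-restricted partners such as TAL1 and LYL1, at E-box motifs. Id proteins have the helix-loop-helix part but lack the basic region that touches DNA, so a dimer of an E protein with an Id protein does not bind. In blood, Tcf3 (E2A) and Tcf12 (HEB) are needed for early B- and T-cell development and Tcf4 (E2-2) sustains plasmacytoid dendritic cells. Id2 is needed for natural killer cells, innate lymphoid cells and several dendritic cells, and Id3 is induced by signals of the T-cell receptor and its precursor.

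Every tested member of the family was measured on all 6 arrays, and 0 of the 6 tested genes passed the threshold between genotypes. The background for that count is 5.27% of the 10302 genes tested (limma, adjusted p under 0.05). At an unadjusted limma p under 0.05 the count was also 0 of 6 for the probe set that represents each gene, against 25.8% of all genes. That count was 2 of 6, Id2 and Tcf4, with array weights, with averaged probe sets and without a filter. Id2 was the member with the largest positive difference (0.26) and Id3 the one with the largest negative difference (-0.37), both on the log2 scale as Gata3-/- minus Gata3+/-. Id4 never reached the minimum log2 value of 4 on any array and was not tested. The differences of the other 4 lay between -0.16 for Tcf4 and 0.03 for Tcf12. The median of the 6 tested members was -0.06, and the median of all genes was -0.02. Where a gene has several probe sets, the one brightest on average stands for it, and levels are log2 GC-RMA intensities. A level is compared only between arrays of the same probe set, because probe sets differ in how brightly they respond.

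**Figure D1:**
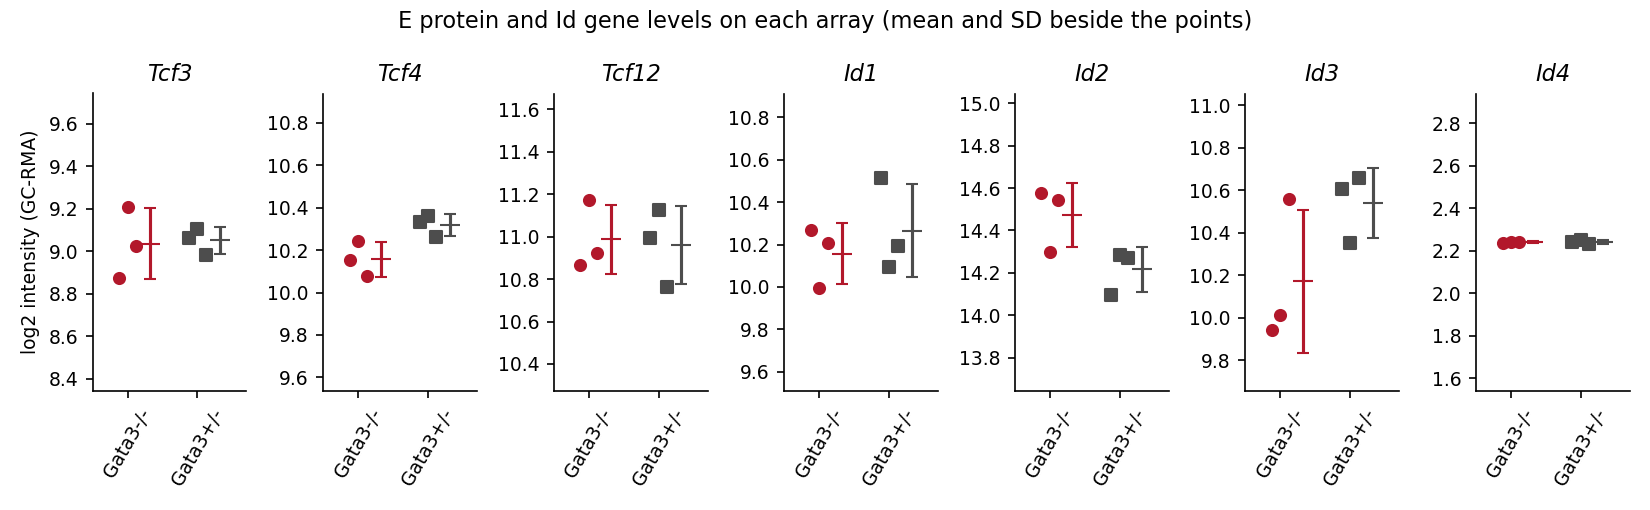
Log2 GC-RMA intensity of each member's representative probe set on the 3 Gata3-/- arrays (red circles) and the 3 Gata3+/- arrays (grey squares), with the mean and SD of each genotype as a bar beside the points. Every panel spans the same height of 1.4 log2 units. The genotypes do not overlap for Tcf4 and Id2, and Id4 lies flat near 2.24.

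The arrays were labelled T-cell progenitors, but 14 of the 18 T-lineage markers analysed stayed under the minimum on every array, among them Cd3e, Rag1 and Ptcra. All 13 macrophage and monocyte markers analysed were measured, with a mean level of 12.08 to 12.30 on Gata3-/- arrays and 12.61 to 12.79 on Gata3+/- arrays. The mean level of the 16 measured markers of OP9 stroma, of 19 analysed, ran from 7.26 to 9.15 on Gata3-/- arrays and from 7.76 to 9.28 on Gata3+/- arrays. It was lowest on the array numbered 2 of each genotype. Col1a1, a stromal collagen, differed between genotypes by -0.63 (limma adjusted p = 0.766) and Csf1r, the macrophage growth factor receptor, by -0.22 (limma adjusted p = 0.165). Between 19977 and 20124 probe sets reached the minimum on each array. The probe set for Gata3 itself stood at 5.87, 6.44 and 5.48 on Gata3-/- arrays and at 5.39, 6.40 and 5.86 on Gata3+/- arrays (limma adjusted p = 0.954). Which exons that probe set reads was not examined, so it does not check the genotype labels. Each array measured a bulk population, so fewer cells of a type and less RNA per cell cannot be told apart.

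Id2, the inhibitor tied to natural killer, innate lymphoid and dendritic cells, was brighter on every Gata3-/- array than on any Gata3+/- array. Its level was 14.58, 14.30 and 14.54 in Gata3-/- cells, against 14.10, 14.28 and 14.27 in Gata3+/- cells. Gata3-/- replicate 2, the lowest of its group, and Gata3+/- replicate 2, the highest of the other, were nearly level. The means were 14.47 ± 0.15 in Gata3-/- cells and 14.22 ± 0.10 in Gata3+/- cells (SD, n = 3 each), which differed by 0.26 (95% interval -0.01 to 0.52). On the linear scale that is 1.19-fold, with bounds of 0.994 and 1.44. The difference did not pass over all probe sets (limma adjusted p = 0.227), and the exact permutation p was 0.1, two-sided, the smallest that 3 arrays against 3 can give. Genotypes did not overlap for 2 of the 6 tested members, Id2 and Tcf4, against 33.6% of all genes (16.9% with Gata3-/- on top).

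All 3 probe sets of Id2 had a positive difference. The second, at 13.04, 12.71 and 12.83 on Gata3-/- arrays and 12.46, 12.70 and 12.52 on Gata3+/- arrays, differed by 0.30 (SE 0.12, limma adjusted p = 0.202). Of the 15 tested probe sets of the family, 0 were called, against 4.37% of all probe sets (2.25% higher and 2.12% lower), and this was the only one with an unadjusted p under 0.05, against 23.5%. Its unadjusted limma p was 0.0453, and its exact permutation p was 0.1. The third was dim, at 4.76, 4.47 and 4.91 on Gata3-/- arrays and 4.16, 4.60 and 4.14 on Gata3+/- arrays, where the genotypes overlapped and the difference was 0.42 (SE 0.18). Probe sets of a gene read the same RNA, so they are not independent measurements. Among the 1218 genes with 3 tested probe sets, 69.5% had all 3 on the same side of 0.

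Id3, the inhibitor induced by antigen receptor signals, had a single probe set, with the widest spread among the representative probe sets of the family. It stood at 9.94, 10.01 and 10.56 in Gata3-/- cells and at 10.61, 10.35 and 10.66 in Gata3+/- cells. Gata3-/- replicates 1 and 2 were lower than all Gata3+/- arrays, while Gata3-/- replicate 3 lay among them. The means were 10.17 ± 0.34 in Gata3-/- cells and 10.54 ± 0.17 in Gata3+/- cells (SD, n = 3 each). The difference of -0.37 had a 95% interval from -0.84 to 0.10 and did not pass (limma adjusted p = 0.316). The exact permutation p was 0.2. The value depended on single arrays: it was -0.56 without Gata3-/- replicate 3 (limma adjusted p = 0.124) and -0.25 without Gata3-/- replicate 1 (limma adjusted p = 0.571). The stromal marker level was 9.15 on Gata3-/- replicate 3, where Id3 was high, against 8.39 and 7.26 on Gata3-/- replicates 1 and 2. Its part in the Id3 values was not tested.

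Id2 and Id3 are also the Id genes whose upstream sequences are shown, because their differences were the largest and had opposite signs. Each line gives the 250 bases before the annotated start of the gene, 5′ to 3′ on the strand of the gene, from RefSeq on build GRCm38.p6. Capitals mark the E-box, the motif CANNTG that E proteins bind, where N is any base. The motif reads the same on both strands.
Id2 (chr12:25096093-25096342, minus strand): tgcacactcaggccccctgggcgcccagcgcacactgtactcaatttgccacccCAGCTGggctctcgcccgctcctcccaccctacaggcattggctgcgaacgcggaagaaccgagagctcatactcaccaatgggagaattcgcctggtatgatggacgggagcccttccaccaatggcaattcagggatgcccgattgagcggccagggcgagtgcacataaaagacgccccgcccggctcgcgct
Id3 (chr4:136143572-136143821, plus strand): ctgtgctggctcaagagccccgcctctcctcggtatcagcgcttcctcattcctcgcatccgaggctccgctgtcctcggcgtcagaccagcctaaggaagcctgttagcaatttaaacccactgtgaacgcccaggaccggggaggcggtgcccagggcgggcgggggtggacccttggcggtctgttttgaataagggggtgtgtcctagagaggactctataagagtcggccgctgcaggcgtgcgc
The Id2 window holds 1 E-box, CAGCTG, whose first base lies 196 bases before the start, and the Id3 window holds 0. Of the 32851 promoter windows of the same length that were searched, 66.2% hold at least 1 CANNTG. The GATA word AGATAA was searched on both strands as well, together with its variant AGATAG. The same was done for the word TGATAA and its variant TGATAG. Neither window holds any of them, and 26.5% of all windows do. No window of Tcf4 or Id1 was used, so nothing is said of theirs. The windows searched for the family came from 5 members, 7 in all. Among the others, the Tcf3 window holds 1 E-box, the 3 Tcf12 windows hold 1, 1 and 0, and the Id4 window holds 0, with 0 GATA words in each. These are matches of letters and say nothing of binding in these cells.

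Id1, an inhibitor induced by BMP signals in many cells, also had a single probe set and overlapped between genotypes. Its level was 10.27, 9.99 and 10.21 in Gata3-/- cells, against 10.51, 10.09 and 10.19 in Gata3+/- cells. The highest value was that of Gata3+/- replicate 1, and the array numbered 2 was the lowest of each genotype. The difference was -0.11 (SE 0.14, 95% interval -0.46 to 0.24, limma adjusted p = 0.698), and without Gata3+/- replicate 1 it was 0.01. Id4, the remaining inhibitor, lay at 1.94 to 2.25 over its 3 probe sets and all 6 arrays. Those values are on the floor of the method, where differences carry no information, so Id4 was below measurement in both genotypes.

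Among the representative probe sets of the E proteins, that of Tcf4 had the narrowest spread. It stood at 10.15, 10.24 and 10.08 in Gata3-/- cells and at 10.33, 10.36 and 10.26 in Gata3+/- cells. Every Gata3-/- array lay below every Gata3+/- array, as for 16.7% of all genes. The means were 10.16 ± 0.08 in Gata3-/- cells and 10.32 ± 0.05 in Gata3+/- cells (SD, n = 3 each). The difference of -0.16 (95% interval -0.35 to 0.03) corresponds to 0.895-fold, with bounds of 0.784 and 1.02. It did not pass over all probe sets (limma adjusted p = 0.281, exact permutation p = 0.1, the smallest possible).

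Tcf4 had 5 tested probe sets, and all had a negative difference, from -0.10 to -0.26. Genotypes did not overlap in 3 of the 5, and in 5 of the 15 of the family, against 30.6% of all probe sets (16.1% with Gata3-/- below). Among the other 4, the adjusted limma p lay between 0.251 and 0.628. The largest of these differences, -0.26 (SE 0.11), came from a probe set at 8.61, 8.64 and 8.58 on Gata3-/- arrays and 8.73, 9.09 and 8.77 on Gata3+/- arrays. Of the 179 genes with 5 tested probe sets, 55.3% had all of them on the same side of 0. A further Tcf4 probe set, at 2.76 to 3.18, stayed below the minimum throughout.

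Tcf3 (E2A) and Tcf12 (HEB) differed between genotypes by less than the spread between arrays of a genotype. Tcf3 stood at 8.87, 9.21 and 9.02 in Gata3-/- cells, against 9.06, 9.11 and 8.98 in Gata3+/- cells. The Gata3+/- values lay inside the range of the Gata3-/- values. The difference was -0.02 with a 95% interval from -0.28 to 0.25 (limma adjusted p = 0.949), which bounds a change between 0.825-fold and 1.19-fold. The other 2 probe sets of Tcf3 had small positive differences of 0.07 and 0.08 (limma adjusted p = 0.706 and 0.649).

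Tcf12 stood at 10.87, 11.17 and 10.93 in Gata3-/- cells, against 10.99, 11.13 and 10.76 in Gata3+/- cells. The array numbered 2 was the brightest of each genotype. The difference was 0.03 (95% interval -0.30 to 0.36, limma adjusted p = 0.930), or between 0.811-fold and 1.28-fold. Its other tested probe set, at 9.15, 9.78 and 9.40 on Gata3-/- arrays and 9.43, 9.56 and 9.02 on Gata3+/- arrays, showed the same order of arrays, with number 2 on top. That difference was 0.11 (SE 0.21, limma adjusted p = 0.809). The 3 remaining Tcf12 probe sets lay at 2.55 to 3.81 and were not tested.

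**Figure D2:**
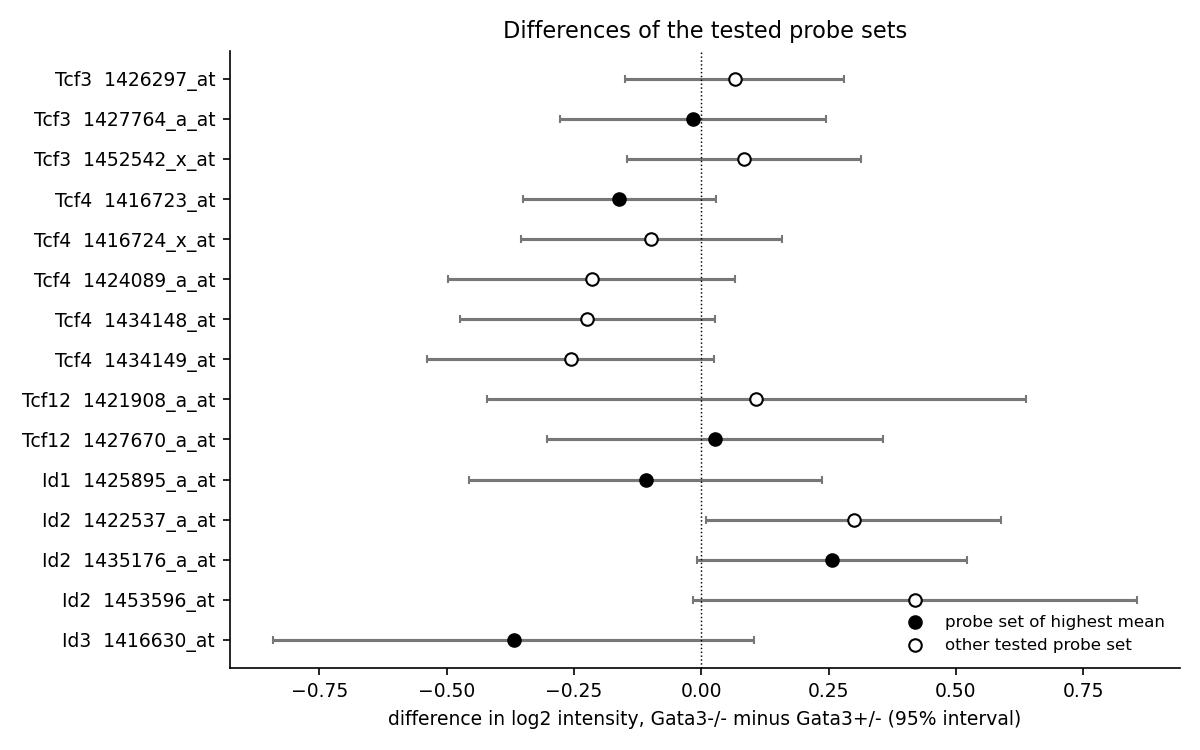
Difference in log2 intensity (Gata3-/- minus Gata3+/-) with its 95% interval for the 15 tested probe sets of the family, with filled points for the probe set of highest mean of each gene. All 5 Tcf4 probe sets lie left of 0 and all 3 Id2 probe sets right of it, and only the interval of 1 Id2 probe set, from 0.01 to 0.59, leaves out 0.

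The spread between arrays of the same genotype differed widely within the family. By representative probe set, the pooled within-genotype SD was 0.07 for Tcf4, lower than for most genes (12.9% had a smaller one). It was 0.27 for Id3, where 78.1% of genes had a smaller one, and 0.13 to 0.18 for Tcf3, Tcf12, Id1 and Id2. The median over all genes was 0.15. Within a single genotype, the representative Tcf4 probe set had SDs of 0.08 (Gata3-/-) and 0.05 (Gata3+/-). Those of the other tested Tcf4 probe sets ran from 0.03 to 0.20. The pooled SD is given for the representative probe set alone, so the narrow spread is stated for that 1 probe set. By size of the difference between genotypes, 75.2% of genes differed by less than Id3, 62.7% by less than Id2 and 46.7% by less than Tcf4. For Tcf3 that share was 5.45% and for Tcf12 it was 9.30%. None of the 7 genes lies on chromosome 11, whose 886 genes with a listed chromosome had a median difference of 0.33. The medians of the chromosomes that carry a member lay between -0.06 for chromosome 10, with Tcf3, and -0.03 for chromosome 4, with Id3.

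On the array numbered 2 of each genotype, the representative probe sets of Tcf3, Tcf4 and Tcf12 had their highest value of that genotype and Id1 its lowest. The other probe sets did not all do so. Of the 10 tested E protein probe sets, 5 were highest on both arrays numbered 2, namely both of Tcf12, 2 of 5 of Tcf4 and 1 of 3 of Tcf3. The other 2 of Tcf3 were lowest on Gata3+/- replicate 2, and 1 of Tcf4 was lowest on Gata3-/- replicate 2. Tcf12 was 0.20 above its mean over the 6 arrays on Gata3-/- replicate 2 and 0.15 above it on Gata3+/- replicate 2. Tcf3 was 0.17 and 0.06 above its own mean on the same arrays. Id1 was 0.22 and 0.12 below its own mean there. The stromal marker level on these arrays was 7.26 and 7.76, the lowest of its genotype each time. Whether stromal RNA has a part in the values of the E proteins or Id1 was not tested. Without both arrays numbered 2, an alternative chosen after the data were seen, Id2 differed by 0.38 (limma adjusted p = 0.223), Id3 by -0.38 and Tcf4 by -0.18, and none passed.

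**Figure D3:**
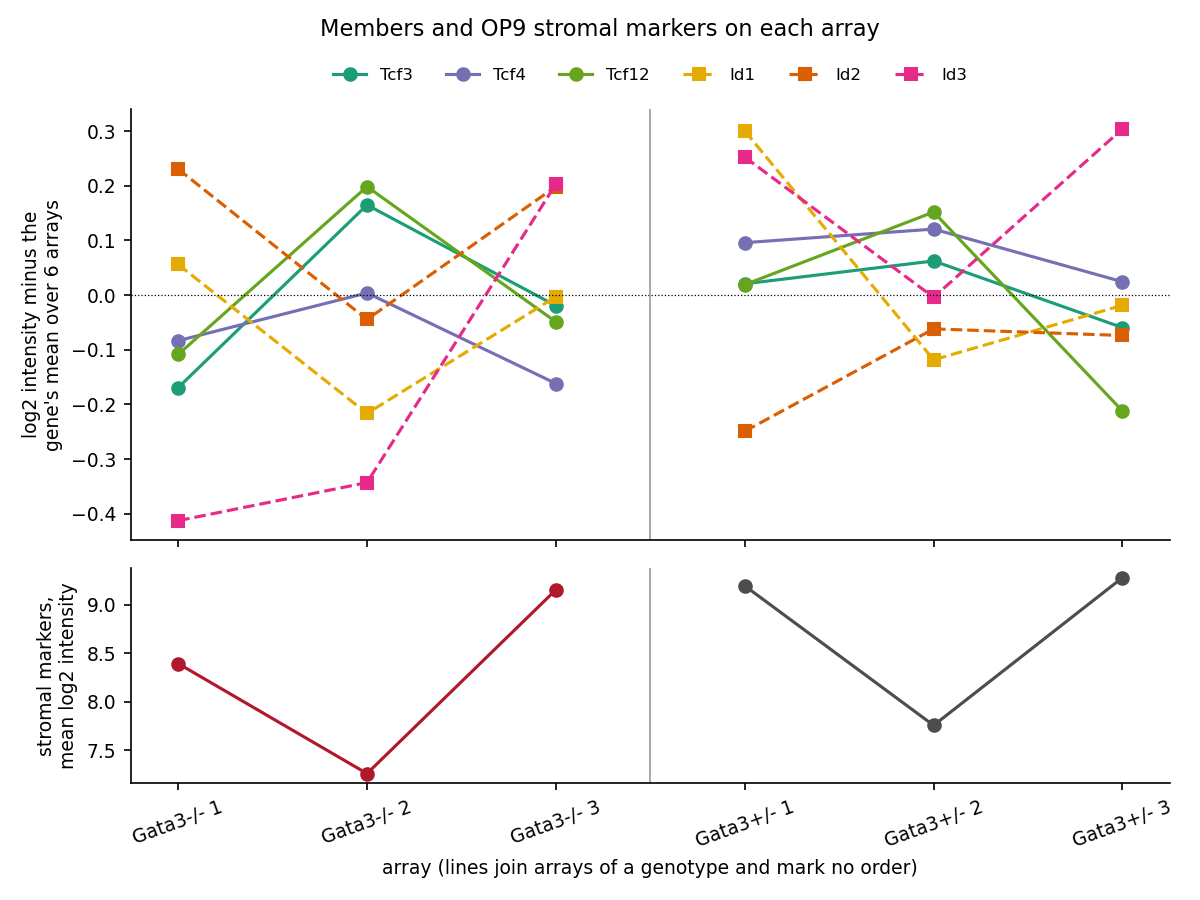
Upper panel, log2 intensity of the 6 tested members on each array minus the gene's own mean over the 6 arrays, with solid lines for E proteins and dashed lines for Id genes. Lower panel, mean log2 intensity of the 16 measured OP9 stromal markers, which is lowest on the arrays numbered 2 (7.26 in Gata3-/- and 7.76 in Gata3+/-), where the representative probe sets of the 3 E proteins, though not all their probe sets, are highest within each genotype.

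Id3, Id1 and Id2 had the largest range over the 6 arrays by representative probe set. The genes with profiles most like theirs were found by the root mean square difference between profiles centred on their own means. Against 10301 other genes, the nearest to Id3 were Rcn2, Micu3, Septin11 and Sec24d, at 0.065 to 0.082 log2 units over 6 arrays. For Micu3 3 of the 6 values were under the minimum. The nearest to Id1 were Phka1, Map6, Slc10a3 and Gpx4, at 0.038 to 0.074, and the nearest to Id2 were Kbtbd3, Pkia, Atg10 and Ric1, at 0.023 to 0.058. The members themselves varied around their means by a root mean square of 0.28 (Id3), 0.16 (Id1) and 0.17 (Id2). None of these 12 genes passed between genotypes. Their limma adjusted p-values ran from 0.157 for Septin11 to 0.571 for Gpx4.

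Genes linked to the family were read from 7 fixed lists, beside a background of 2.86% of all genes called higher and 2.41% called lower. Among partners and cofactors of E proteins, 15 of 17 genes were measured and 1 was called, Kat2b, a histone acetyltransferase. It stood at 10.18, 10.30 and 10.03 in Gata3-/- cells against 10.76, 10.97 and 10.68 in Gata3+/- cells and fell by 0.63 (SE 0.11, limma adjusted p = 0.0462). The other 14 did not pass, and the list's median was -0.03. Lmo2, a bridging protein of the TAL1 complex, had values of 11.55, 11.68 and 11.47 in Gata3-/- cells and 12.02, 12.17 and 11.86 in Gata3+/- cells, which did not overlap (difference -0.45, limma adjusted p = 0.0812). Lmo2 passed with array weights (limma adjusted p = 0.0321) and under no other alternative, so the count of 14 depends on the fit. Lyl1 and Tal1, which pair with E proteins, had differences of -0.37 and -0.24, Ldb1, the adaptor of the complex, -0.01, and the corepressor Cbfa2t3 0.24. None of these 4 passed.

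Of 21 lymphoid genes named as targets of E2A and HEB, 11 were measured and 10 never reached the minimum on any array. Rag1 and Ptcra, which drive receptor rearrangement and pre-T-cell signalling, were among the 10. Of the 11, Il7r rose and Dtx1 and Bach2 fell, while 8 did not pass. Il7r, the IL-7 receptor chain, stood at 10.47, 10.58 and 10.54 in Gata3-/- cells against 8.96, 9.35 and 9.68 in Gata3+/- cells (difference 1.20, SE 0.19, limma adjusted p = 0.0371). Dtx1, a regulator of Notch signalling, was near the minimum in Gata3-/- cells, at 4.22, 4.14 and 3.93, against 5.37, 5.33 and 5.82 in Gata3+/- cells (difference -1.41, limma adjusted p = 0.0289). Bach2, a repressor in lymphocytes, stood at 5.70, 4.54 and 4.67 in Gata3-/- cells against 6.89, 7.30 and 7.09 in Gata3+/- cells (difference -2.12, limma adjusted p = 0.0370). Notch1 and its target Hes1 had differences of -0.09 and 0.11, and Cdkn1a, a cell cycle inhibitor, 1.28 (limma adjusted p = 0.0689). Cdkn1a passed with averaged probe sets (limma adjusted p = 0.0361) and with array weights (limma adjusted p = 0.0270) and under no other alternative. The count of 8 that did not pass therefore depends on the fit. Notch1 and Hes1 were highest on the array numbered 2 of each genotype. The list's median was -0.09.

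Tcf4 is known as the E protein of plasmacytoid dendritic cells, and of 16 genes linked to it there 13 were measured. Siglech, their surface lectin, was under the minimum on all 3 Gata3-/- arrays and at 7.59, 9.02 and 7.50 on Gata3+/- arrays, at least 16.4-fold lower. It entered the fit only through the Gata3+/- arrays, so its level is a description and it is left out of the count. Of the other 12, 3 fell, 0 rose and 9 did not pass. Pacsin1 stood at 5.58, 6.07 and 5.39 in Gata3-/- cells against 7.54, 7.37 and 7.26 in Gata3+/- cells, and fell by 1.71. Tlr7, a sensor of RNA, fell by 0.76 and Irf8, a dendritic cell and monocyte factor, fell by 0.67. Spib, a factor of the same cells, had the opposite sign, at 7.87, 7.16 and 7.77 in Gata3-/- cells and 5.47, 3.50 and 5.62 in Gata3+/- cells (difference 2.74, limma adjusted p = 0.0652). Spib passed with a variance trend (limma adjusted p = 0.0499), with array weights (limma adjusted p = 0.0390) and with the replicate block (limma adjusted p = 0.0478). The count of 0 that rose therefore depends on the fit, and so does the count that fell. With Siglech included, 4 fell here. With array weights, a filter at log2 6, averaged probe sets or a variance trend, 5 fell. Bcl11a had a difference of 0.26, and the median of the list was -0.21, or -0.08 without Siglech. Markers of other cells moved too, as 3 of 13 macrophage and monocyte markers (Fcgr1, Ccr2 and Cx3cr1) fell and the mean level of the 13 was lower on every Gata3-/- array than on any Gata3+/- array, and Tlr7 and Irf8 are also expressed in those cells. The part of cell mixture in these differences was not tested.

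Among genes of lineages that depend on Id2, 6 of 11 were measured and 5 never reached the minimum, among them Eomes and Tbx21 of natural killer cells. Zbtb46, a factor of conventional dendritic cells, stood at 8.30, 7.37 and 7.58 in Gata3-/- cells against 6.21, 5.26 and 6.13 in Gata3+/- cells and rose by 1.89 (SE 0.35, limma adjusted p = 0.0485). The other 5 did not pass, and Batf3, a factor of the same cells, had the opposite sign at -0.78 (limma adjusted p = 0.0759). The list's median was 0.74. The mean level of the 7 measured markers of conventional dendritic cells, of 9 analysed, was 9.10 to 9.49 on Gata3-/- arrays and 7.59 to 8.49 on Gata3+/- arrays. Of those markers, only Zbtb46 was called.

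Id genes are known targets of BMP signalling through SMAD1 and SMAD5, and 14 of 18 genes of that pathway and of TGF-beta signalling were measured. Of the 14, 13 had a negative difference (53.3% of all genes did), 2 fell, 0 rose and 12 did not pass. Marker levels of some other cells were lower too, such as the macrophage and monocyte levels given above. The mean of 6 measured endothelial markers was 7.08 to 7.51 on Gata3-/- arrays and 7.69 to 7.84 on Gata3+/- arrays. Of those 6, 4 had a negative and 2 a positive difference (median -0.15). Mean differences were positive for conventional dendritic (1.18), mast cell and basophil (0.49), and natural killer and innate lymphoid markers (0.29). They were negative for the other marker lists. The part of cell mixture in the differences of this list was not tested. Smad6, an inhibitory SMAD that BMP signals induce, stood at 7.83, 7.25 and 7.54 in Gata3-/- cells against 8.57, 8.62 and 8.45 in Gata3+/- cells and fell by 1.00 (SE 0.16, limma adjusted p = 0.0383). Smad5, which carries the BMP signal, stood at 7.38, 7.03 and 7.13 in Gata3-/- cells against 7.71, 7.98 and 7.83 in Gata3+/- cells and fell by 0.66 (limma adjusted p = 0.0498). Smad7, the inhibitory SMAD of TGF-beta signalling, had a difference of -0.06. The list's median was -0.32, beside -0.02 for all genes and -0.11 for Id1. The ligand genes Bmp4 and Bmp6 stayed under the minimum on all arrays.

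Id3 is known to be induced through ERK and EGR factors, and of 11 genes of that route 10 were measured, 1 fell and 9 did not pass. Srf, a factor that acts with ELK proteins, stood at 8.51, 8.40 and 8.34 in Gata3-/- cells against 8.94, 9.03 and 9.12 in Gata3+/- cells and fell by 0.61 (SE 0.09, limma adjusted p = 0.0344). With its probe sets averaged, the Srf difference shrank to -0.26 and did not pass (limma adjusted p = 0.122). Egr1, the immediate early factor, stood at 10.22, 9.74 and 9.55 in Gata3-/- cells and 9.83, 8.88 and 9.34 in Gata3+/- cells, with overlap and a difference of 0.49 (limma adjusted p = 0.377). The list's median was 0.08. Of 27 other genes of the basic helix-loop-helix class, 16 were measured and 1 was called. That was Ahr, the aryl hydrocarbon receptor, which stood at 11.93, 11.88 and 11.64 in Gata3-/- cells against 11.03, 11.17 and 11.07 in Gata3+/- cells and rose by 0.73 (limma adjusted p = 0.0344). The median of these 16 was -0.21.

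**Figure D4:**
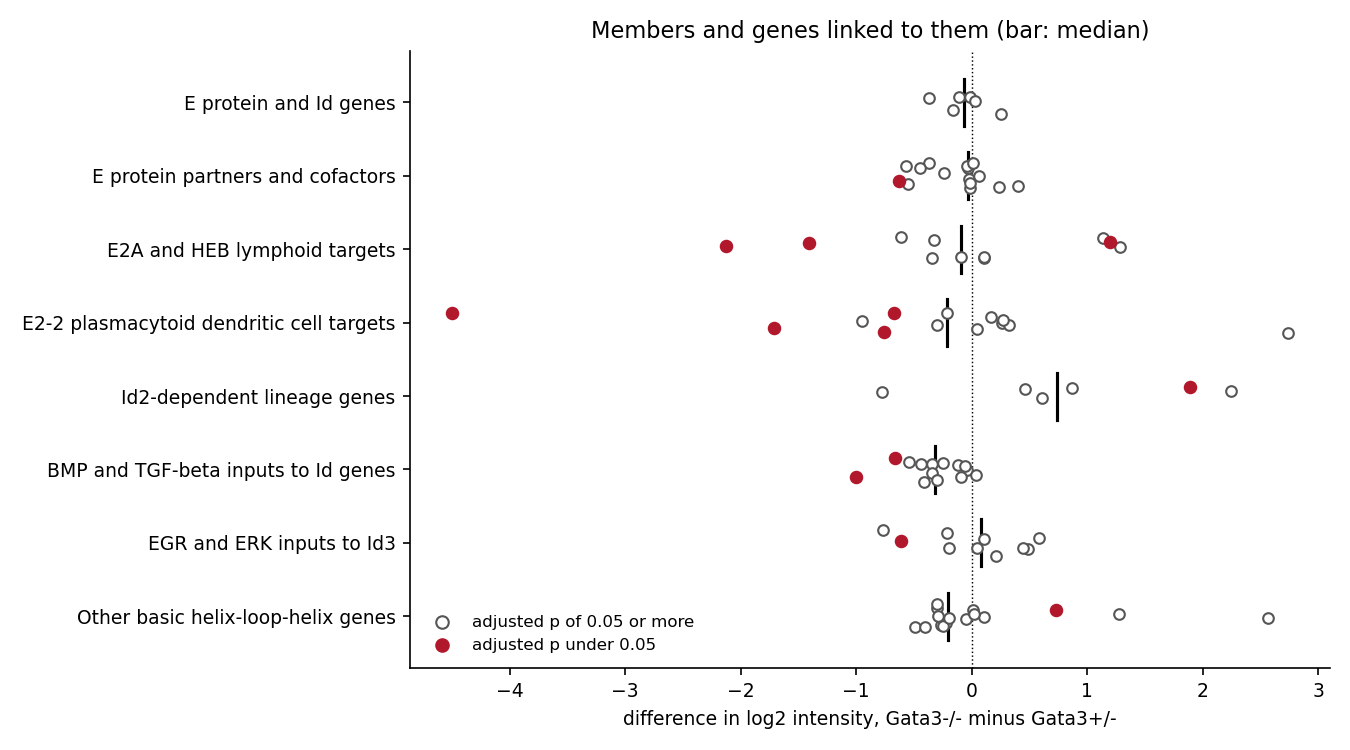
Difference in log2 intensity (Gata3-/- minus Gata3+/-) of every tested gene of the family and of the 7 lists of linked genes, with red points for an adjusted p under 0.05 and a black bar for the median of each list. The 6 family members lie between -0.37 and 0.26, all open, while the plasmacytoid dendritic cell list holds 3 red points below 0 besides Siglech, whose fitted -4.50 is set against values under the minimum and is no measured fold.

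The 13 named genes past the threshold depended on the filter and on having all 6 arrays. They include Siglech, which entered the fit only through the Gata3+/- arrays, so its calls are a description and no support. Without a filter on low values, 0 of the 13 passed and the 7 lists held 0 calls (limma adjusted p from 0.0561 to 0.137 for the 13). With averaged probe sets, Kat2b (limma adjusted p = 0.0542), Srf (0.122) and Ahr (0.119) no longer passed. Leaving out any array left 0 of the 13 past the threshold, with limma adjusted p-values from 0.0568 to 0.137. The unadjusted limma p stayed at 0.0101 or below. Those genes were chosen by their p on these same arrays, so low values there are no separate support. Over all genes the same fits called 0 to 4, namely 0 without Gata3-/- replicate 2, Gata3+/- replicate 1 or Gata3+/- replicate 2, 1 without Gata3-/- replicate 1, 2 without Gata3+/- replicate 3 and 4 without Gata3-/- replicate 3. Without both arrays numbered 2, the 7 lists held 0 calls.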

How the data were processed

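The authors deposited linear intensities for 45101 Affymetrix probe sets on 6 arrays. Per the labels they are GC-RMA values, corrected for background by probe sequence and normalized between arrays. GCOS is named in the submitters' processing notes, and the sources used here give no version or setting. Here log2 was taken without further normalization, and 64 control probe sets were dropped. Tests were kept to probe sets of log2 4 or more (intensity 16) on 3 or more arrays, which left 20102 probe sets, 15 of the 22 of this family. Genes were named from the platform annotation and matched by gene identifier to RefSeq (GRCm38.p6). The build of the deposited values is not given, so the only coordinates printed are those of the RefSeq promoter windows. The fit was also tried on simulated data. It recovered 51% of changes of 1 log2 unit and 86% of changes of 2, with 9 false calls of 146. Changes as small as the differences of this family were not simulated, so its power for them is not known. Differences (Gata3-/- minus Gata3+/-) were tested with limma 3.58.1 in R 4.3.3, two-sided, with Benjamini-Hochberg adjustment over all probe sets tested and a threshold of 0.05. Exact permutation tests of single genes used scipy 1.17.1, and plots matplotlib 3.10.9. The number of arrays limits the precision.

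Members, lists and tests were chosen with earlier results of these data known. The text names all members, up to 4 called genes of each list, most of a fixed set of regulators, and the genes nearest in profile. Cx3cr1, Fcgr1, Ccr2, Eomes, Tbx21, Bmp4 and Bmp6 were added after their values were seen. The alternatives tried were array weights, a replicate block, robust eBayes with a variance trend, no filter, a filter at log2 6, median centring, quantile normalization, averaged probe sets, and leaving out arrays.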

Additional observations from a re-analysis of the deposited data

How the results depend on the processing

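At an unadjusted limma p under 0.05 the count of members was 0 of 6 with a filter at log2 6, median centring, quantile normalization and the replicate block. It was 1 with a variance trend (Id2) and 2 with array weights, averaged probe sets or no filter (Id2 and Tcf4). Without Gata3-/- replicate 2 or without both arrays numbered 2 it was 1 (Id2), and without Gata3-/- replicate 3 it was 1 (Id3). It was 0 without any other single array. No member of the family passed the threshold under any of the 15 alternatives run for each, and Id2, Id3 and Tcf4 kept their sign in all of them. Over the alternatives that keep all arrays or leave out both arrays numbered 2, Id2 ranged from 0.24 to 0.38 (lowest limma adjusted p = 0.0691, with array weights), Id3 from -0.38 to -0.36 and Tcf4 from -0.19 to -0.15. Differences near 0 changed sign. Tcf3 was 0.044 with averaged probe sets and Tcf12 was -0.034 with array weights. Leaving out single arrays moved Tcf3 between -0.10 and 0.065, Tcf12 between -0.072 and 0.11, Id1 between -0.20 and 0.014, Id2 between 0.20 and 0.34, Id3 between -0.56 and -0.25 and Tcf4 between -0.20 and -0.12. Id4 could be fitted only without a filter, at floor values. The background counts of 543 genes and 878 probe sets became 98 and 166 when no filter was applied, 1224 and 2075 with array weights, 824 and 1349 under a variance trend, 298 and 498 with the replicate block, 3 and 4 without both arrays numbered 2, and 0 to 4 and 0 to 9 without single arrays (2043 to 2484 genes and 3578 to 4622 probe sets at an unadjusted limma p under 0.05). With the replicate block Id3 had the same difference of -0.37 (limma adjusted p = 0.198) and Id2 of 0.26 (limma adjusted p = 0.273). The block left 6 of the 13 named list genes past the threshold (0 of 2 in the BMP list). Siglech was among the 6, though it entered the fit only through the Gata3+/- arrays. The block lost 7, Dtx1, Bach2, Irf8, Smad6, Smad5, Srf and Ahr, at limma adjusted p from 0.0516 to 0.0932, while Spib passed at 0.0478. Across probe sets, the deviations of same-numbered arrays correlated at 0.005 (number 1), 0.695 (number 2) and 0.429 (number 3). Those of Gata3-/- replicate 3 and Gata3+/- replicate 1 correlated at 0.424, and those of Gata3-/- replicate 1 and Gata3+/- replicate 3 at 0.3125. The remaining differently numbered arrays gave -0.618 to -0.263. The titles do not say what same-numbered arrays share, so the numbers were not taken as pairs. Signal limits Id4, which lay on the floor, and 10 of 21 lymphoid targets, which stayed under the minimum on every array.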
